A study of Homo sapiens with 39 samples.

Results

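The autophagy and lysosome genes described here are 34 genes that carry material to the lysosome, control that route, or make up the lysosome itself. They were found by matching the Ensembl identifiers of the deposited count table to 34 listed symbols. All 34 were found among 15808 rows, and all 34 passed the filter on low counts that left 12814 genes for testing. By role, 14 take part in autophagosome formation and cargo capture, 2 are transcription factors, 4 sit in the lysosomal membrane, 6 are cathepsins, 5 are other proteins of the lysosomal lumen and 3 are subunits of the proton pump.

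In autophagy a cell wraps cytoplasm in a double membrane, the autophagosome, and fuses it with a lysosome, where acid hydrolases break the content down. The ULK1 kinase and the beclin lipid kinase complex start the membrane, WIPI and ATG2 proteins bring lipid to it, the ATG conjugation enzymes attach proteins of the LC3 and GABARAP families to it, and receptors such as p62 (SQSTM1) tie cargo to LC3. The transcription factors TFEB and TFE3 are known to bind a palindromic promoter motif, called CLEAR, found near many lysosomal genes. In B cells the cathepsins also matter for antigen presentation, above all cathepsin S, which trims the invariant chain of MHC class II.

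The study sequenced RNA from 39 libraries of 4 established human lymphoma lines in 13 groups of 3, each given as treated for 6 h by its own time label. The lines were DOHH2 and Toledo, generally classed as germinal centre B cell lymphoma, and the pair OCILy10 and TMD8, generally classed as activated B cell lymphoma. Every line had a group with DMSO, the vehicle, a group with NEO2734, which blocks bromodomains of BET proteins and of the acetyltransferases CBP and p300, and a group with OTX015 (birabresib), an inhibitor of the BET bromodomains. OCILy10 had a further group with CB103, an inhibitor of the Notch transcription complex. Doses are not given in the labels, a treatment text that all samples share names other compounds than the sample labels do and adds a time of 14 days, and no label ties the 3 libraries of a group to separate cultures. The p-values therefore measure the spread between libraries, which may be technical.

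Library totals ran from 1000281 to 11668542 counts and fell into 24 shallow libraries (at most 3420458) and 15 deep ones (at least 6670250). Each group held 1 deep library, except OCILy10 with DMSO and with NEO2734, which held 2 each. Levels below are counts scaled to library size by TMM factors, written as CPM. Deep and shallow libraries differed in level for 59.6% of all genes and for 22 of the 34 members (15 higher and 7 lower in deep libraries), in a fit with depth class as a term. In 3 libraries, genes private to another line were read: those of OCILy10 stood at 72.2% of their OCILy10 level in the library labelled Toledo DMSO replicate 2, those of Toledo at 25.8% in OCILy10 CB103 replicate 2, and those of OCILy10 at 10.6% in DOHH2 NEO2734 replicate 3. Private genes numbered 10 to 16 a line and were chosen on the other 36 libraries. They had over 10 CPM in each such library of the line. The 90th percentile over such libraries of the other lines was under 1 CPM. In those 36 libraries private genes of another line stood at most at 2.18%, which this choice largely sets in advance. All 5 B cell markers were read in every library, with a sum of 365 to 3592 CPM. The markers of type did not follow the classes as lists. Of the 4 germinal centre markers, MME had a median of 175 CPM in Toledo and 14.9 in DOHH2, against 1.61 in OCILy10 and 0 in TMD8, while BCL6 had medians of 5.11 and 0 in Toledo and DOHH2, against 60.2 and 21.4. LMO2 was highest in TMD8 (26.0) and MYBL1 in Toledo (16.4). Of the 3 activated type markers, IRF4 had its highest median in DOHH2 (818). FUT8 had medians of 97.0 CPM in OCILy10 and 95.6 in TMD8, against 4.98 in DOHH2 and 19.8 in Toledo. CCND2 had medians of 366 in OCILy10 and 216 in TMD8, against 184 in DOHH2 and 6.14 in Toledo. Of 3 myeloid markers in the table (LYZ, CSF1R and ITGAM) the sum was at most 6.09 CPM, and the 1 T cell marker in the table, CD2, reached 14.9 CPM.

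NEO2734 raised 12 of the 34 members and lowered 2, taken as the mean of the 4 lines, while 20.5% of all genes tested were called (9.29% higher and 11.2% lower). The sialidase gene NEU1 rose by the largest amount, 2.88-fold, and the kinase gene ULK1, the lipid transfer gene ATG2A, the cargo receptor gene SQSTM1, the cholesterol transporter gene NPC1 and the LC3 gene MAP1LC3B rose by 1.91- to 2.27-fold. Both genes that fell encode cathepsins, CTSS (0.61 of the DMSO level) and CTSH (0.49). The median log2 fold change of the members was 0.28, against -0.02 over all genes, and 27 of the 34 were above 0. The other 20 members did not pass. Without the 3 libraries that held genes of another line 12 members were called (16.3% of all genes), and the calls of CTSH and GLA were lost.

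A gene counts as called at an adjusted p under 0.05 in edgeR's quasi-likelihood test, with Benjamini-Hochberg adjustment over all 12814 genes, and every adjusted p below comes from that test unless another is named. Fold changes are on the log2 scale, compound over DMSO, and errors after ± are standard errors unless named as SD. Levels are relative to each library's total, so a loss of cells and a change in RNA per cell cannot be told apart.

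OTX015 raised 6 members and lowered 2, with 11.6% of all genes called (5.53% higher and 6.06% lower). Its 6 raised members were NEU1, ULK1, ATG2A, WIPI1, NPC2 and CTSB, and the lowered ones were again CTSS and CTSH. Each of these 8 was also called with NEO2734, but both comparisons use the same 12 DMSO libraries and are not independent. The median over the members was 0.18, against -0.03 over all genes, and 23 members were above 0. Without the 3 libraries that held genes of another line 7 of the 8 calls were left (9.45% of all genes), and that of CTSH was lost. The point estimates had 1 sign in all 4 lines for 23 members with NEO2734 (20 positive and 3 negative) and for 22 with OTX015 (16 positive and 6 negative). Over all genes, 21.1% were positive and 22.6% negative in all 4 lines with NEO2734, and 19.4% and 20.9% with OTX015.

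**Figure D1:**
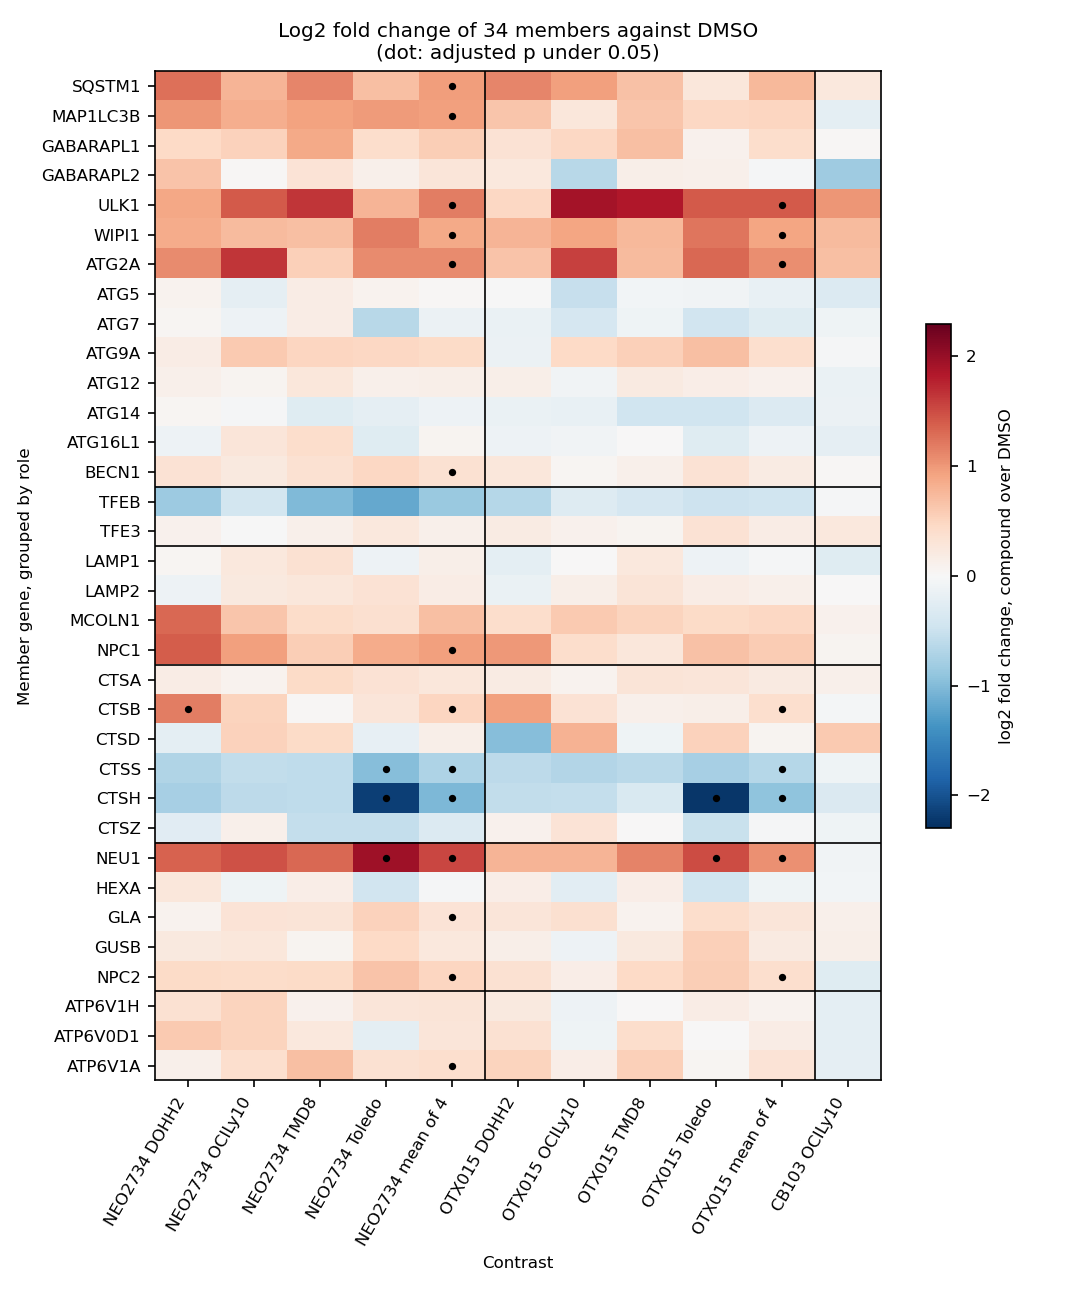
Log2 fold change (colour, compound over DMSO) of the 34 member genes in rows, grouped by role, for each compound in each line, for the mean of the 4 lines and for CB103 in OCILy10; a black dot marks an adjusted p under 0.05. In the NEO2734 mean column 14 members carry a dot, in the OTX015 mean column 8, and in the CB103 column none.

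Of the 14 genes of autophagosome formation and cargo, 6 rose with NEO2734 and 3 of those also passed with OTX015. They stood at the start of the route (ULK1 and BECN1), at the lipid supply of the growing membrane (WIPI1 and ATG2A) and at its cargo end (MAP1LC3B and SQSTM1). The conjugation enzymes between these steps did not pass with either compound: ATG5 gave 0.03 ± 0.19 (adjusted p = 0.984) with NEO2734, ATG7 -0.13 ± 0.25 (adjusted p = 0.833), ATG12 0.14 ± 0.10 (adjusted p = 0.364) and ATG16L1 0.07 ± 0.13 (adjusted p = 0.828). With OTX015 their log2 values ran from -0.27 for ATG7 to 0.10 for ATG12. ATG9A, the membrane scramblase, gave 0.44 ± 0.30 (adjusted p = 0.372), and ATG14, a subunit of the lipid kinase complex, -0.11 ± 0.13 (adjusted p = 0.643). Among the relatives of LC3, GABARAPL1 gave 0.56 ± 0.29 (adjusted p = 0.196), with an adjusted p of 0.037 under a replicate block, and GABARAPL2 0.28 ± 0.35 (adjusted p = 0.696).

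ULK1, the kinase that starts autophagosome formation (GRCh38 chr12:131894651-131923167, plus strand), had the lowest level per kilobase of all members with DMSO and was read at as few as 2 counts in a library. In DOHH2, ULK1 stood at 21.7, 19.2 and 10.3 CPM with DMSO, at 35.2, 14.9 and 45.1 with NEO2734 and at 31.1, 17.3 and 22.9 with OTX015. ULK1 in OCILy10 was at 2.24, 4.46 and 2.01 CPM with DMSO, 7.03, 11.9 and 4.48 with NEO2734 and 17.4, 4.53 and 10.8 with OTX015. In OCILy10 every library with either compound lay above the highest DMSO library, whereas in DOHH2 the groups overlapped. TMD8 libraries held ULK1 at 3.34, 2.77 and 2.40 CPM with DMSO, 4.27, 14.4 and 9.18 with NEO2734 and 5.05, 17.2 and 10.00 with OTX015. For Toledo, ULK1 was at 8.52, 9.29 and 5.12 CPM with DMSO, 24.3, 7.88 and 8.55 with NEO2734 and 31.6, 6.53 and 23.4 with OTX015. The groups were apart in TMD8 as well and overlapped in Toledo. Over the 4 lines ULK1 rose by 1.18 ± 0.31 (adjusted p = 0.00617) with NEO2734 and by 1.41 ± 0.31 (adjusted p = 0.00295) with OTX015.

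ATG2A, which moves lipid from the endoplasmic reticulum to the growing membrane, spread widely within groups. In DOHH2, ATG2A stood at 13.4, 14.2 and 11 CPM with DMSO, at 29.6, 10.6 and 41.4 with NEO2734 and at 24, 18.4 and 17.9 with OTX015. ATG2A in OCILy10 was at 3.30, 13.2 and 7.03 CPM with DMSO, 15.9, 29.3 and 28.5 with NEO2734 and 29, 9.80 and 30.7 with OTX015. In OCILy10 all 3 NEO2734 libraries lay above the DMSO libraries, and in DOHH2 replicate 2 lay below all 3 of them. TMD8 libraries held ATG2A at 16.9, 17.7 and 21.6 CPM with DMSO, 13, 43.3 and 26.8 with NEO2734 and 20.5, 35.9 and 37.4 with OTX015. For Toledo, ATG2A was at 5.05, 15.3 and 12.3 CPM with DMSO, 36.5, 21.9 and 10.8 with NEO2734 and 39.2, 18.3 and 22.2 with OTX015. Both lines held a NEO2734 library below some DMSO libraries, and with OTX015 the groups were apart in DOHH2 and Toledo. ATG2A rose by 1.09 ± 0.27 (adjusted p = 0.00386) with NEO2734 and by 1.07 ± 0.27 (adjusted p = 0.00851) with OTX015. WIPI1, which binds the lipid that marks the site of membrane growth and recruits ATG2 proteins, was read at low levels. In DOHH2, WIPI1 stood at 6.91, 4.95 and 2.59 CPM with DMSO, at 9.80, 6.84 and 10.1 with NEO2734 and at 7.01, 7.25 and 11.5 with OTX015. WIPI1 in OCILy10 was at 2.24, 2.02 and 7.03 CPM with DMSO, 5.44, 5.51 and 6.93 with NEO2734 and 4.91, 7.54 and 8.09 with OTX015. These rested on few reads, down to 3 counts in a Toledo DMSO library. TMD8 libraries held WIPI1 at 7.12, 8.86 and 11.1 CPM with DMSO, 14.9, 11.8 and 16.8 with NEO2734 and 11.1, 7.17 and 26.8 with OTX015. For Toledo, WIPI1 was at 3.47, 2.19 and 3.07 CPM with DMSO, 4.68, 6.19 and 8.75 with NEO2734 and 6.44, 9.14 and 5.11 with OTX015. The NEO2734 libraries lay above the DMSO libraries in TMD8 and Toledo and overlapped them in DOHH2 and OCILy10. WIPI1 rose by 0.86 ± 0.24 (adjusted p = 0.00872) with NEO2734 and by 0.92 ± 0.24 (adjusted p = 0.0106) with OTX015.

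MAP1LC3B, the most used marker of autophagosomes, rose with NEO2734 by 0.94 ± 0.21 (adjusted p = 0.0019), while with OTX015 it gave 0.50 ± 0.21 (adjusted p = 0.137) and did not pass, except with a replicate block (adjusted p = 0.00144) or a depth term (0.000195). In DOHH2, MAP1LC3B stood at 62.8, 41.5 and 32.3 CPM with DMSO, at 112, 97 and 70.03 with NEO2734 and at 90.8, 59.1 and 64.5 with OTX015. MAP1LC3B in OCILy10 was at 86.4, 46.4 and 26.1 CPM with DMSO, 128, 104 and 53.4 with NEO2734 and 100.3, 44.5 and 44.7 with OTX015. The DMSO and NEO2734 groups were apart in DOHH2 and overlapped in OCILy10. TMD8 libraries held MAP1LC3B at 88.7, 42.1 and 40.8 CPM with DMSO, 168, 77.4 and 81.8 with NEO2734 and 126, 63.8 and 76.3 with OTX015. For Toledo, MAP1LC3B was at 67.6, 37.7 and 38.9 CPM with DMSO, 80.9, 84.4 and 119.6 with NEO2734 and 75.1, 71.2 and 55.8 with OTX015. They were apart again in Toledo. In each of the 13 groups the highest MAP1LC3B level was in a deep library, and over all groups deep libraries held it higher by 0.83 ± 0.09 (log2). Within deep libraries alone the NEO2734 change was 0.83 and within shallow ones 1.06.

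SQSTM1 encodes p62, a receptor that binds ubiquitin and LC3 and is itself consumed by autophagy. In DOHH2, SQSTM1 stood at 117, 683 and 310.4 CPM with DMSO, at 355, 1214 and 1089 with NEO2734 and at 313, 1147 and 963 with OTX015. SQSTM1 in OCILy10 was at 292, 494 and 599 CPM with DMSO, 539, 831 and 1007 with NEO2734 and 695, 872 and 1080.3 with OTX015. The DMSO and NEO2734 groups overlapped in both lines. TMD8 libraries held SQSTM1 at 54.8, 116 and 156 CPM with DMSO, 75.4, 326 and 311 with NEO2734 and 77.2, 225 and 219.5 with OTX015. For Toledo, SQSTM1 was at 48.8, 394 and 112 CPM with DMSO, 489, 329 and 83.8 with NEO2734 and 134, 272 and 265 with OTX015. The groups overlapped here as well. In each of the 13 groups the lowest SQSTM1 level was in a deep library, and the difference between deep and shallow libraries was -1.37 ± 0.18 (log2). SQSTM1 rose by 0.97 ± 0.35 (adjusted p = 0.0484) with NEO2734 and gave 0.75 ± 0.35 (adjusted p = 0.18) with OTX015, where it passed with a replicate block (adjusted p = 0.0111). The NEO2734 call was lost in 28 of 39 fits that each left out 1 library, while the log2 change stayed between 0.83 and 1.27. Adjusted p was 0.000533 with a depth term, 0.00208 with a replicate block and 0.0159 without the 3 libraries that held genes of another line (log2 change 1.24), and the change was 0.89 in deep and 0.96 in shallow libraries.

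BECN1, the core subunit of the lipid kinase complex, rose by a small amount with NEO2734, 0.35 ± 0.11 (adjusted p = 0.026), and gave 0.19 ± 0.11 (adjusted p = 0.331) with OTX015. Its levels ran from 56.0 to 117 CPM over the 12 DMSO libraries and from 62.5 to 154 over the 12 with NEO2734. The NEO2734 call was lost when OCILy10 DMSO replicate 2, DOHH2 NEO2734 replicate 2, OCILy10 NEO2734 replicate 3 or TMD8 NEO2734 replicate 3 was left out (adjusted p = 0.052 to 0.0589).

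**Figure D2:**
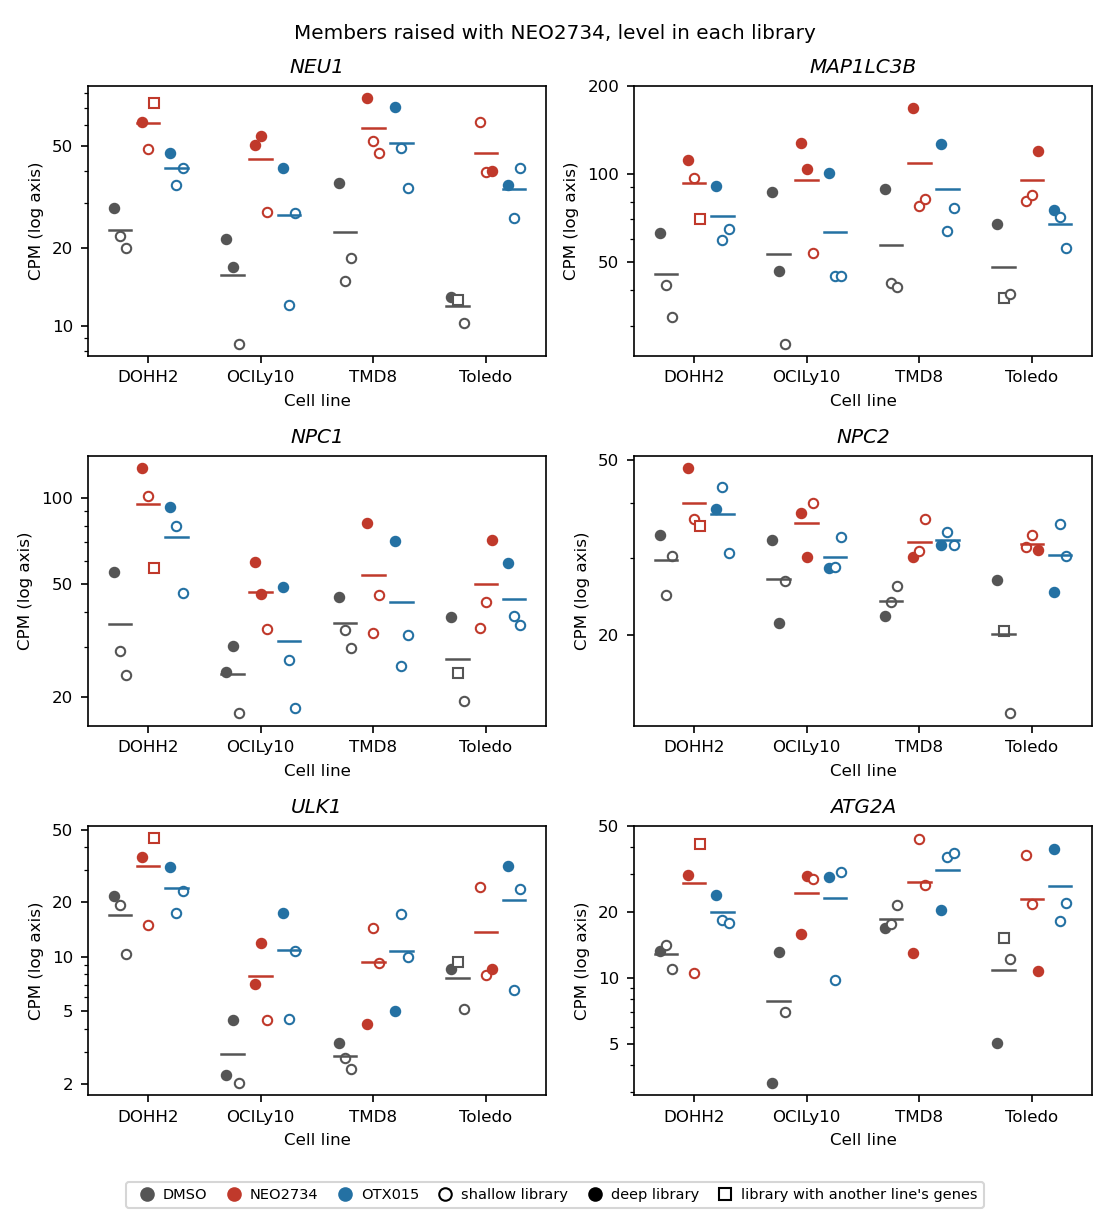
Level (CPM, log axis) of 6 members called higher with NEO2734 in every DMSO, NEO2734 and OTX015 library of the 4 lines; each point is a library, a bar is the mean of 3, filled points are deep and open points shallow libraries, and squares mark libraries that held genes of another line. All NEO2734 points of NEU1 lie above the DMSO points of the same line, from 27.7 CPM upward in OCILy10 against at most 21.7 with DMSO.

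Neither transcription factor passed with either compound. TFEB, the factor best known as a driver of lysosomal genes, gave -0.86 ± 0.34 (adjusted p = 0.073) with NEO2734, negative in each of the 4 lines (-1.18 to -0.43 in the single-line estimates), and -0.46 ± 0.34 (adjusted p = 0.471) with OTX015. TMD8 libraries held TFEB at 29.2, 17.2 and 30.3 CPM with DMSO, 10.7, 16.2 and 11.5 with NEO2734 and 18.5, 32.3 and 8.42 with OTX015. For Toledo, TFEB was at 8.84, 39.9 and 7.16 CPM with DMSO, 12.6, 6.75 and 6.18 with NEO2734 and 25.6, 5.88 and 8.10 with OTX015. TMD8 was the only line in which all NEO2734 libraries lay below the DMSO libraries, and the groups overlapped in the other 3. The DMSO value of 39.9 CPM is in Toledo replicate 2, which held OCILy10 genes, and without the 3 such libraries TFEB had an adjusted p of 0.22 with NEO2734. TFEB passed with NEO2734 under DESeq2 (adjusted p = 0.0434), with a depth term (0.0292) and with a replicate block (0.0439). TFE3, its relative with shared targets, gave 0.11 ± 0.16 (adjusted p = 0.73) with NEO2734 and 0.17 ± 0.16 (adjusted p = 0.607) with OTX015.

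TFEB and TFE3 are known to bind a palindrome with the core CACGTG, so the RefSeq windows around the gene starts (GRCh38.p14, 250 bases before to 50 after) were searched for TCACGTGA and for the CACGTG inside it. Both words read the same on both strands. The table held 34 windows for 28 members and none for CTSS, CTSB, HEXA, LAMP2, ATP6V1A and ATP6V1H. Over all 35116 windows, 0.980% held TCACGTGA and 7.26% CACGTG, and of the 34 windows of members 4 and 7 did. Each of the 4 members with TCACGTGA (LAMP1, MCOLN1, CTSA and ATP6V0D1) belongs to the 20 that did not pass with NEO2734. Of the 10 raised members with a window, 1 held CACGTG, NEU1, and of the 17 members with a window that were not called 6 did. The 3 stretches below set the gene with the largest rise beside a pair with the longer word that did not pass. Capitals mark the matches, and each stretch lies outside annotated exons.
NEU1, chr6:31862907-31863006, minus strand: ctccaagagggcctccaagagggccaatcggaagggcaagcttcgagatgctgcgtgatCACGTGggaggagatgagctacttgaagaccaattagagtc
MCOLN1, chr19:7522524-7522623, plus strand: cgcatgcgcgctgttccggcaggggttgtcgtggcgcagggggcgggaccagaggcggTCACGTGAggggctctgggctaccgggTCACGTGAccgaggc
LAMP1, chr13:113297139-113297238, plus strand: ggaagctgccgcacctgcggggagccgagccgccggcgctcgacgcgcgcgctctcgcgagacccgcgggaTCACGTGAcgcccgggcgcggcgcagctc
The match shown for NEU1 starts at -126 from the RefSeq start, and that of LAMP1 at -29. A match is a description of letters in the window, and no binding was measured here.

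Of the 4 genes of the lysosomal membrane, NPC1 rose with NEO2734 and the other 3 did not pass. NPC1 hands cholesterol out of the lysosome. In DOHH2, NPC1 stood at 55.2, 29.1 and 23.9 CPM with DMSO, at 128, 102 and 56.8 with NEO2734 and at 93.3, 79.8 and 46.6 with OTX015. NPC1 in OCILy10 was at 24.5, 30.4 and 17.6 CPM with DMSO, 59.8, 46.3 and 34.6 with NEO2734 and 48.9, 27.2 and 18.3 with OTX015. The NEO2734 libraries lay above the DMSO libraries in both lines. TMD8 libraries held NPC1 at 44.9, 34.3 and 29.8 CPM with DMSO, 81.6, 33.7 and 45.9 with NEO2734 and 70.8, 25.8 and 33.2 with OTX015. For Toledo, NPC1 was at 38.4, 24.3 and 19.4 CPM with DMSO, 35.1, 43.3 and 71.2 with NEO2734 and 59, 38.5 and 35.8 with OTX015. In TMD8 and Toledo the groups overlapped, the deep library being the highest of each group in both lines. NPC1 rose by 0.94 ± 0.21 (adjusted p = 0.00181) with NEO2734 and gave 0.59 ± 0.21 (adjusted p = 0.0724) with OTX015, where it passed with a replicate block (adjusted p = 0.0079). LAMP1 and LAMP2, which line the lysosomal membrane, gave 0.13 ± 0.22 (adjusted p = 0.802) and 0.17 ± 0.11 (adjusted p = 0.297) with NEO2734. MCOLN1, a calcium channel of the lysosome, gave 0.69 ± 0.37 (adjusted p = 0.209), with values down to 1 count in a library.

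The 6 cathepsin genes moved in both directions with both compounds: CTSS and CTSH fell, CTSB rose, and CTSA, CTSD and CTSZ did not pass. CTSS, the protease that trims the invariant chain of MHC class II (GRCh38 chr1:150730196-150765957, minus strand), had a negative estimate in every line. In DOHH2, CTSS stood at 103, 96.5 and 133 CPM with DMSO, at 69.9, 71.5 and 65.3 with NEO2734 and at 68.5, 83.1 and 68.1 with OTX015. CTSS in OCILy10 was at 188, 142 and 254 CPM with DMSO, 112, 104 and 179 with NEO2734 and 109, 112 and 145 with OTX015. In DOHH2 all libraries with either compound lay below the DMSO libraries, and in OCILy10 replicate 3 of each group was the highest and the groups overlapped. TMD8 libraries held CTSS at 165, 178 and 193 CPM with DMSO, 120.0, 105 and 133 with NEO2734 and 113, 103 and 133 with OTX015. For Toledo, CTSS was at 171, 119.6 and 155 CPM with DMSO, 66.9, 68.7 and 88.2 with NEO2734 and 89.6, 98 and 74.6 with OTX015. TMD8 and Toledo again showed no overlap with either compound. Groups apart and lower in at least 3 lines held for 3.72% of all genes with NEO2734 and 1.74% with OTX015. CTSS was -0.71 ± 0.12 (adjusted p = 6.43e-05) with NEO2734 and -0.66 ± 0.12 (adjusted p = 0.000393) with OTX015, and its point estimates in single lines ran from -0.99 to -0.57 with NEO2734 and from -0.76 to -0.60 with OTX015.

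CTSH, an aminopeptidase, was called lower on the mean with both compounds, -1.03 ± 0.27 (adjusted p = 0.00707) with NEO2734 and -0.92 ± 0.27 (adjusted p = 0.0251) with OTX015. In DOHH2, CTSH stood at 53.5, 77.3 and 70.5 CPM with DMSO, at 40.4, 33.6 and 44 with NEO2734 and at 40.5, 49.6 and 45.2 with OTX015. CTSH in OCILy10 was at 199, 199 and 118 CPM with DMSO, 132, 127 and 81.5 with NEO2734 and 162, 106 and 85.7 with OTX015. In DOHH2 no library with a compound reached the lowest DMSO library, and OCILy10 held the gene highest. TMD8 libraries held CTSH at 65.7, 60.4 and 37.5 CPM with DMSO, 44.6, 35.9 and 27.5 with NEO2734 and 55.7, 49.5 and 22.6 with OTX015. For Toledo, CTSH was at 16.3, 132 and 5.12 CPM with DMSO, 12.6, 10.7 and 11.5 with NEO2734 and 11.9, 7.84 and 13.2 with OTX015. The Toledo value of 132 CPM is in replicate 2, the library in which OCILy10 genes were read, and OCILy10 DMSO libraries held 118 to 199 CPM. Without that library the Toledo change was -0.03 with NEO2734 and -0.09 with OTX015 (adjusted p = 1 for both), in place of -2.17 ± 0.58 (adjusted p = 0.0246) and -2.23 ± 0.58 (adjusted p = 0.032). Over the 4 lines it was then -0.49 with NEO2734 (adjusted p = 0.0468) and -0.39 with OTX015 (0.181), and without all 3 libraries that held genes of another line -0.51 (0.0546) and -0.40 (0.177).

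CTSB, a protease with wide substrate use, rose on the mean with NEO2734 by 0.50 ± 0.13 (adjusted p = 0.00534) and with OTX015 by 0.39 ± 0.13 (adjusted p = 0.0477). In DOHH2, CTSB stood at 50.1, 43.3 and 56.9 CPM with DMSO, at 73.9, 118 and 151 with NEO2734 and at 57.9, 102 and 133 with OTX015. CTSB in OCILy10 was at 54, 68.8 and 52.7 CPM with DMSO, 69.5, 86.4 and 95.8 with NEO2734 and 68.2, 66.4 and 86.8 with OTX015. All NEO2734 libraries lay above the DMSO libraries in these 2 lines, and DOHH2 showed the largest change, 1.18 ± 0.26 (adjusted p = 0.0101). Without DOHH2 NEO2734 replicate 3, which held OCILy10 genes, the DOHH2 change was 0.93 and did not pass (adjusted p = 0.0922). Nor did it pass without DOHH2 DMSO replicate 2 (1.09, adjusted p = 0.0665). TMD8 libraries held CTSB at 68.3, 94.2 and 85.1 CPM with DMSO, 61.1, 87.9 and 102 with NEO2734 and 73.2, 96.8 and 99 with OTX015. For Toledo, CTSB was at 40.3, 57.9 and 47.1 CPM with DMSO, 65.9, 63.6 and 46.7 with NEO2734 and 48.9, 56.8 and 54.5 with OTX015. In TMD8 and Toledo the groups overlapped. The OTX015 call was lost in 25 of 39 fits that each left out 1 library. CTSA gave 0.25 ± 0.17 (adjusted p = 0.336) with NEO2734, CTSD 0.14 ± 0.43 (adjusted p = 0.921) and CTSZ -0.31 ± 0.18 (adjusted p = 0.27), which passed with a replicate block (adjusted p = 0.0174). With OTX015 these 3 gave 0.21, 0.06 and -0.02.

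**Figure D3:**
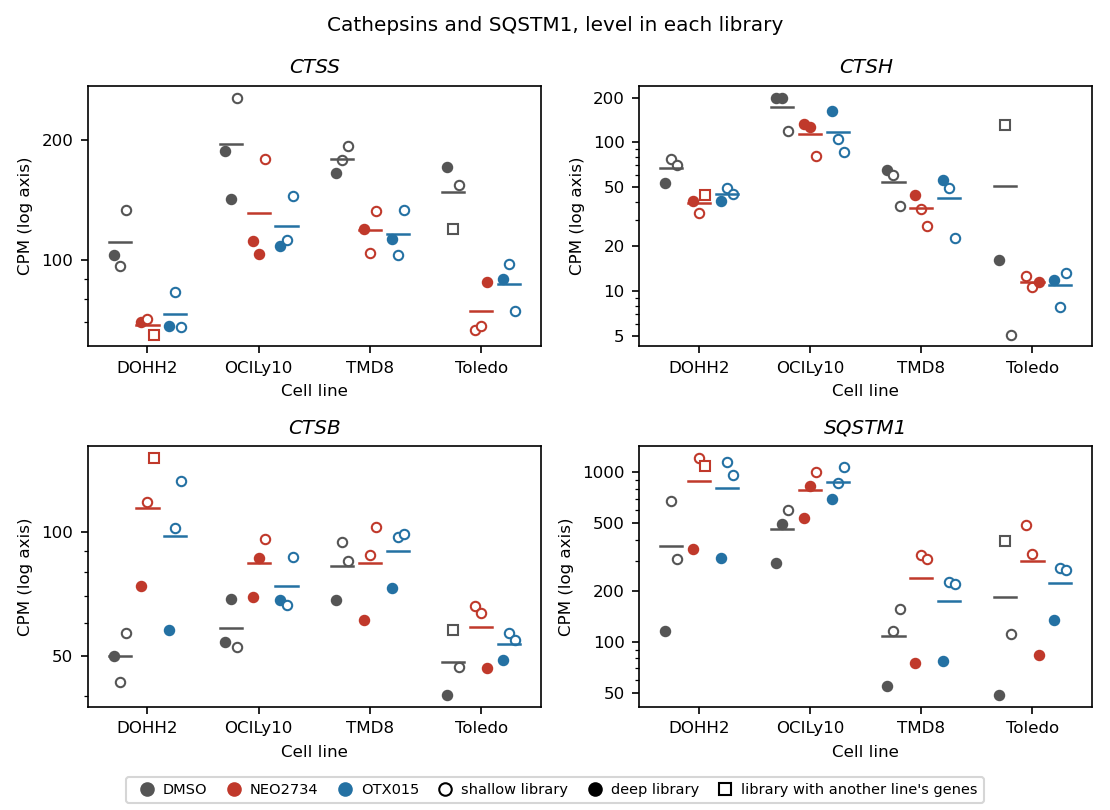
Level (CPM, log axis) of CTSS, CTSH, CTSB and SQSTM1 in every DMSO, NEO2734 and OTX015 library; each point is a library, a bar is the mean of 3, filled points are deep and open points shallow libraries, and squares mark libraries that held genes of another line. The square among the Toledo DMSO points of CTSH stands at 132 CPM, the other two at 16.3 and 5.12.

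Among the 5 other proteins of the lumen, NEU1, NPC2 and GLA rose with NEO2734, NEU1 and NPC2 passed with OTX015 as well, and HEXA and GUSB did not pass. NEU1 encodes the sialidase that trims sialic acid from glycoproteins (GRCh38 chr6:31857659-31862906, minus strand). In DOHH2, NEU1 stood at 28.6, 22.3 and 20.05 CPM with DMSO, at 61.8, 48.5 and 73.2 with NEO2734 and at 46.7, 35.1 and 40.9 with OTX015. NEU1 in OCILy10 was at 21.7, 16.8 and 8.53 CPM with DMSO, 50.5, 54.4 and 27.7 with NEO2734 and 41, 12.1 and 27.5 with OTX015. Each NEO2734 library lay above each DMSO library of its line, and with OTX015 replicate 2 of OCILy10 fell back into the DMSO range. TMD8 libraries held NEU1 at 35.9, 15 and 18.3 CPM with DMSO, 76.4, 52 and 46.7 with NEO2734 and 70.8, 48.8 and 34.2 with OTX015. For Toledo, NEU1 was at 12.9, 12.6 and 10.2 CPM with DMSO, 61.7, 39.4 and 39.95 with NEO2734 and 35.3, 26.1 and 40.9 with OTX015. The NEO2734 groups were thus apart in all 4 lines, as they were upward for 1.16% of all genes and downward for 0.929%, and NEU1 was the only member of which this held. With OTX015 the groups were apart in DOHH2 and Toledo, and no member was apart in all 4 lines, where 0.468% of all genes were apart upward and 0.367% downward. NEU1 rose by 1.53 ± 0.20 (adjusted p = 2.19e-06) with NEO2734 and by 1.05 ± 0.20 (adjusted p = 0.000631) with OTX015.

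NPC2 carries cholesterol to NPC1 inside the lysosome. In DOHH2, NPC2 stood at 33.8, 24.8 and 30.4 CPM with DMSO, at 48, 36.7 and 35.5 with NEO2734 and at 38.7, 43.5 and 30.8 with OTX015. NPC2 in OCILy10 was at 32.9, 21.3 and 26.6 CPM with DMSO, 38, 30.2 and 39.9 with NEO2734 and 28.4, 28.7 and 33.4 with OTX015. The NEO2734 libraries lay above the DMSO libraries in DOHH2 and overlapped them in OCILy10. TMD8 libraries held NPC2 at 22.1, 23.8 and 26 CPM with DMSO, 30.1, 31.1 and 36.7 with NEO2734 and 32.1, 34.4 and 32.1 with OTX015. For Toledo, NPC2 was at 26.7, 20.5 and 13.3 CPM with DMSO, 31.8, 33.8 and 31.3 with NEO2734 and 25.1, 35.9 and 30.3 with OTX015. NEO2734 libraries lay above the DMSO libraries in DOHH2, TMD8 and Toledo, and at least 3 lines apart and higher held for 3.53% of all genes. NPC2 rose by 0.49 ± 0.11 (adjusted p = 0.00136) with NEO2734 and by 0.38 ± 0.11 (adjusted p = 0.019) with OTX015. With the other deposited count table, which differs in OCILy10 CB103 replicate 1, it passed with NEO2734 (adjusted p = 0.0372). With OTX015 it then gave 0.38 and did not pass (adjusted p = 0.174). GLA, the galactosidase lost in Fabry disease, rose by 0.31 ± 0.11 (adjusted p = 0.042) with NEO2734, a call lost in 11 of 39 fits that each left out 1 library (adjusted p up to 0.0995), and gave 0.28 ± 0.11 (adjusted p = 0.0903) with OTX015, where it passed with a replicate block (adjusted p = 0.0354). HEXA gave -0.03 ± 0.13 (adjusted p = 0.958) and GUSB 0.25 ± 0.20 (adjusted p = 0.464) with NEO2734, and GUSB passed with a replicate block (adjusted p = 0.039).

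The proton pump keeps the lysosome acid. Of its 3 members ATP6V1A, the catalytic subunit, rose with NEO2734 by 0.38 ± 0.12 (adjusted p = 0.0216), and gave 0.32 ± 0.12 (adjusted p = 0.0864) with OTX015. The NEO2734 call missed the threshold without DOHH2 NEO2734 replicate 1 (0.34, adjusted p = 0.0516). ATP6V1H, a regulatory subunit, gave 0.30 ± 0.22 (adjusted p = 0.402) and ATP6V0D1, which links the rotor to the membrane ring, 0.28 ± 0.30 (adjusted p = 0.612).

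The 2 bromodomain inhibitors were compared directly, library group against library group, in 34 tests of members. None was called on the mean of the 4 lines with edgeR, DESeq2 or limma-voom, and with edgeR 0.0312% of all genes were called. At an unadjusted p under 0.05 there were 2 members and 499 genes in all. The first was NEU1, higher with NEO2734 than with OTX015 by 0.48 ± 0.19 (adjusted p = 1, 95% interval 0.09 to 0.87), and the second MAP1LC3B, by 0.44 ± 0.21 (adjusted p = 1, interval 0.00 to 0.87). NEO2734 gave the higher estimate for 27 of the 34 members, with a median difference of 0.09, but no share over all genes is set beside this count. The members are read in the same libraries and are not independent, so the count is not a test. Of the members called with both compounds, CTSS had an interval of -0.28 to 0.20, ATG2A -0.52 to 0.56 and ULK1 -0.84 to 0.38. Intervals were narrowest for ATG12 (-0.16 to 0.24) and widest for CTSD (-0.80 to 0.95), MCOLN1 (-0.53 to 0.95) and GABARAPL2 (-0.41 to 1.03). Members called with NEO2734 and not with OTX015 were thus not shown to differ between the compounds. Within single lines no member and no gene was called between the compounds in any of the 4 lines, and at an unadjusted p under 0.05 there were 0 members and 87 to 288 genes.

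The lines did not differ detectably in how the members responded. An F-test of the NEO2734 change across the 4 lines called no member, and 0.0156% of all genes, and the same test for OTX015 called no gene. At an unadjusted p under 0.05 these tests gave 1 member and 783 genes for NEO2734 and 0 members and 478 genes for OTX015, and DESeq2 and limma-voom called no member in either. The 1 member was CTSB (adjusted p = 0.568), whose NEO2734 change was 1.18 in DOHH2, 0.52 in OCILy10, 0.02 in TMD8 and 0.27 in Toledo.

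Within single lines few members passed on 3 libraries a group. With NEO2734, CTSB rose in DOHH2 (2.9% of all genes called), CTSS and CTSH fell and NEU1 rose in Toledo (5.47% called), and no member passed in OCILy10 (1.01%) or TMD8 (2.17%). With OTX015, NEU1 rose and CTSH fell in Toledo (3.09%), and no member passed in DOHH2 (0.125%), OCILy10 (0.0702%) or TMD8 (0.39%). In the 5 comparisons with no call, 3 to 6 members had an unadjusted p under 0.05, against 897 to 1534 of all genes. NEU1 in Toledo gave 1.96 ± 0.41 (adjusted p = 0.00517) with NEO2734 and 1.5 ± 0.40 (adjusted p = 0.0366) with OTX015, and CTSS -0.99 ± 0.24 (adjusted p = 0.0152) with NEO2734. Leaving out the 3 libraries that held genes of another line left 1 of these 6 calls, CTSS in Toledo with NEO2734 (-1.12 ± 0.26, adjusted p = 0.0417; 0.623% of all genes), with NEU1 there at 1.98 ± 0.48, adjusted p = 0.0517. Leaving out Toledo DMSO replicate 2 alone left NEU1 in Toledo at 1.53 with OTX015 (adjusted p = 0.317).

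Same-numbered libraries deviated together in 5 of the 8 single-line comparisons with DMSO, and a fit with the replicate number as a block called more members there. Replicate 1 was deep in every group except Toledo with NEO2734, where replicate 3 was the deep library. The block and depth class therefore largely overlap, and their effects cannot be told apart. The block was fitted in all 4 lines, also in Toledo, where same-numbered NEO2734 and DMSO libraries correlated at -0.63, -0.10 and -0.61. With NEO2734 in DOHH2 it called 5 members in place of 1 (7.42% of all genes): CTSB, NPC1 (1.40 ± 0.28, adjusted p = 0.00385), MAP1LC3B (1.05 ± 0.22, adjusted p = 0.00537), NEU1 (1.36 ± 0.29, adjusted p = 0.00648) and CTSS (-0.68 ± 0.17, adjusted p = 0.0153). In OCILy10 (5.06%) and in TMD8 (5.86%) it called the same 3 genes with NEO2734, where none passed without the block. NEU1 was 1.51 ± 0.29, adjusted p = 0.0039, in OCILy10 and 1.38 ± 0.29, adjusted p = 0.00604, in TMD8. MAP1LC3B was 0.91 ± 0.21, adjusted p = 0.0136, and 0.93 ± 0.22, adjusted p = 0.011. CTSS was -0.57 ± 0.16, adjusted p = 0.0427, and -0.59 ± 0.17, adjusted p = 0.0359. With OTX015 the block called CTSB in DOHH2 (0.85 ± 0.20, adjusted p = 0.0383, 1.07% of all genes) and NEU1 in TMD8 (1.17 ± 0.29, adjusted p = 0.0414, 1.79%). On the mean of the 4 lines the block called 18 members with NEO2734 (28.5%) and 12 with OTX015 (18.9%). Those added were TFEB, GABARAPL1, CTSZ and GUSB with NEO2734 and MAP1LC3B, SQSTM1, NPC1 and GLA with OTX015.

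With DMSO the members differed widely in level per kilobase of exon, from CTSZ (86 CPM per kilobase), CTSS (37.4) and SQSTM1 (36.7) to GABARAPL1 (1.40) and ULK1 (1.00). An F-test across the 4 lines called 11 of the 34 members, while 48.1% of all genes were called. GLA and LAMP2 had the lowest p.

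GLA was lowest in TMD8, with 17.7, 23.8 and 20.7 CPM, against 41.4, 61.9 and 59.5 in DOHH2, 56.6, 50.8 and 61.2 in OCILy10 and 57, 41.8 and 54.2 in Toledo (adjusted p = 1.48e-05). The TMD8 libraries lay below all others, and the other 3 lines overlapped. LAMP2 stood at 113, 163 and 162 CPM in DOHH2 and 172, 91.2 and 158 in Toledo, against 76.2, 72.7 and 52.2 in OCILy10 and 90.8, 57.6 and 56.7 in TMD8 (adjusted p = 1.96e-05). All DOHH2 and Toledo libraries lay above all OCILy10 and TMD8 libraries, Toledo replicate 2, which held OCILy10 genes, by the least. CTSZ, a carboxypeptidase, ran the other way, at 231, 137 and 276 CPM in OCILy10 and 236, 295 and 309 in TMD8, against 99.5, 98.4 and 148 in DOHH2 and 69.3, 119.9 and 83.9 in Toledo (adjusted p = 0.00116). OCILy10 replicate 2 overlapped with DOHH2, and TMD8 lay above DOHH2 and Toledo.

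ULK1 was highest in DOHH2 (mean 17.1 ± 5.94 CPM, SD, 3 libraries), followed by Toledo (7.64 ± 2.22), OCILy10 (2.90 ± 1.36) and TMD8 (2.84 ± 0.475), with an adjusted p of 0.00155. OCILy10 and TMD8 did not differ beyond their spread. ATG12, the ubiquitin-like protein that is joined to ATG5, was at 90.3, 83.1 and 76.4 CPM in TMD8, 52.1, 48.3 and 53.7 in DOHH2, 53.9, 42.8 and 47.7 in OCILy10 and 73.6, 44.3 and 43 in Toledo (adjusted p = 0.0024). TMD8 lay above all other libraries, and the others overlapped. CTSH was highest in OCILy10, 172 ± 46.5 CPM (SD), against 67.1 ± 12.3 in DOHH2 and 54.5 ± 15 in TMD8, and Toledo held 16.3, 132 and 5.12 (adjusted p = 0.0137). The other 5 called were WIPI1, CTSS, GABARAPL1, CTSB and GUSB, between adjusted p 0.0219 and 0.0443. The test called 16 members in place of 11 when Toledo DMSO replicate 2 was left out, and without DOHH2 replicate 1, TMD8 replicate 2, TMD8 replicate 3 or Toledo replicate 3 of DMSO it called 8. A replicate block gave 16 (53.4% of all genes) and depth class as a term 19 (66.2%).

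**Figure D4:**
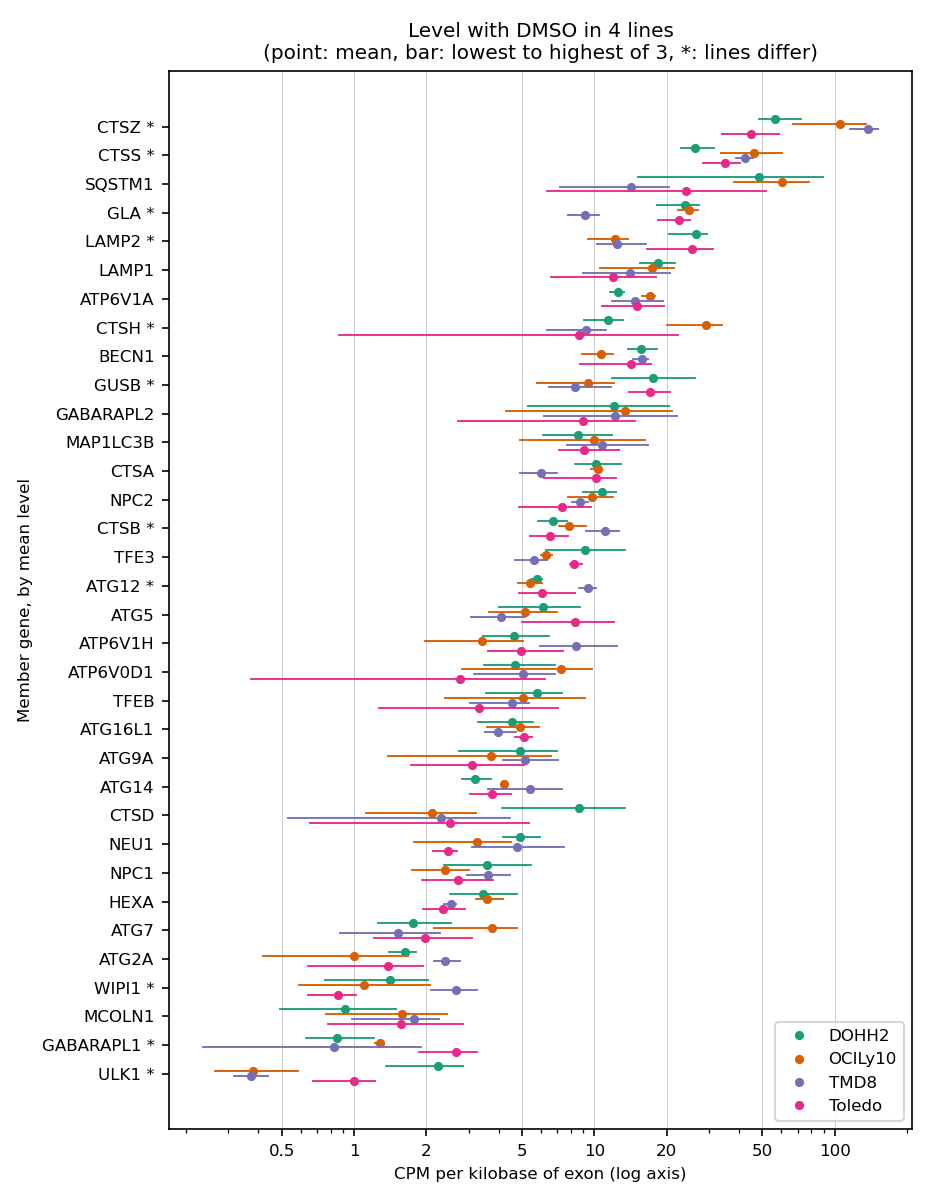
Level with DMSO of the 34 members in the 4 lines, in CPM per kilobase of annotated exon (log axis); a point is the mean of 3 libraries, a bar runs from the lowest to the highest, and an asterisk marks the 11 members called in the F-test across lines. CTSZ is at the top and ULK1 at the bottom by mean level, and the GLA points of TMD8 stand to the left of those of the other lines.

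CB103, tested in OCILy10, called no member and no gene with edgeR, and limma-voom called none. Replicate 2 of CB103 held Toledo genes at 25.8% of their Toledo level. Replicate 1 differed in 14746 genes between the deposited count tables, of which the one named as raw counts was used. DESeq2 called 27 genes and no member. At an unadjusted p under 0.05 edgeR gave 0 members and 273 genes. The 2 members with the lowest p were ULK1, at 6.72, 8.75 and 1.84 CPM with CB103 against 2.24, 4.46 and 2.01 with DMSO (1.02 ± 0.63, 95% interval -0.26 to 2.3, adjusted p = 1), and WIPI1, at 3.88, 5.33 and 9.21 against 2.24, 2.02 and 7.03 (0.73 ± 0.48, -0.26 to 1.71, adjusted p = 1). Replicate 3 of ULK1 lay below and the others above the DMSO range. NEU1, the member with the largest rise with NEO2734, was at 17.7, 17.9 and 8.29 CPM with CB103, within the range of the DMSO libraries apart from replicate 3, which lay just under it. CTSS was at 156, 129 and 259.8 CPM against 188, 142 and 254 with DMSO, and replicate 3 was the highest in both groups.

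Since the level of 22 members differed between depth classes, the changes were also taken within each class. Deep libraries held GABARAPL2 (1.37 ± 0.14, log2 deep minus shallow), ATP6V1H (0.92 ± 0.07), MAP1LC3B (0.83 ± 0.09) and NPC1 (0.80 ± 0.09) higher, and SQSTM1 (-1.37 ± 0.18), GABARAPL1 (-0.62 ± 0.20) and CTSZ (-0.49 ± 0.12) lower. The NEO2734 change had the same sign in deep and in shallow libraries for 30 of the 34 members and the OTX015 change for 25. The share over all genes was not taken. All 14 members called with NEO2734 kept their sign: NEU1 gave 1.30 in deep and 1.72 in shallow libraries, CTSS -0.66 and -0.73, NPC1 0.96 and 0.91, and ULK1 0.62 and 1.35. With 1 or 2 deep libraries a group, 4 members passed in deep libraries alone with NEO2734 (NEU1, NPC1, WIPI1 and CTSS, 5.01% of all genes) and none with OTX015 (0.427%). In shallow libraries alone 8 passed with NEO2734 (14.0%) and 4 with OTX015 (7.36%). With depth class as a term, 16 members passed with NEO2734 (30.5% of all genes) and 13 with OTX015 (20.1% of all genes). The additions with NEO2734 were TFEB and ATP6V1H, and with OTX015 NPC1, MAP1LC3B, SQSTM1, ATP6V1A and GLA.

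**Figure D5:**
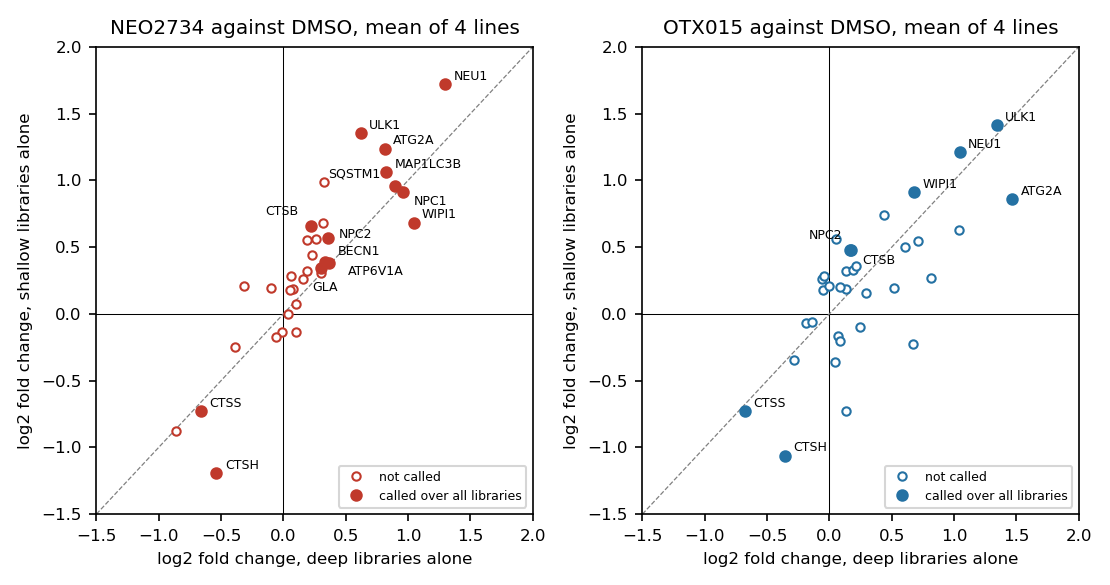
Log2 fold change of each of the 34 members in shallow libraries alone (vertical) against deep libraries alone (horizontal), for NEO2734 and for OTX015 against DMSO over the 4 lines; filled points are called over all libraries, and the dashed line marks equal change. Every filled point lies in the upper right or the lower left, NEU1 with NEO2734 at 1.30 and 1.72, but the filled points were chosen on these same libraries.

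A wider set of 134 genes of the same pathways, of which 126 were in the table and 122 were tested, gave 23 higher and 9 lower with NEO2734 and 10 higher and 4 lower with OTX015. That is 26.2% called with NEO2734, against 20.5% of all genes, and 11.5% with OTX015, near the 11.6% of all genes. Its median log2 change with NEO2734 was 0.19. The shares below are to be read against that 20.5%. Cargo receptors and fusion factors had 5 higher and 2 lower of 13 (53.8%), led by NBR1, a receptor akin to p62 (0.61 ± 0.14), and SNAP29, a fusion protein (0.50 ± 0.11). Of 30 other lysosomal enzymes 5 rose and 3 fell (26.7%), and the sulfatase gene ARSB was among those that fell (-0.65 ± 0.14). Of 17 genes in the nutrient control of TFEB 4 rose and 1 fell (29.4%), led by FNIP1 (0.66 ± 0.15) and FLCN (0.51 ± 0.15), which act together on the Rag GTPases. Delivery of enzymes to the lysosome had 2 higher and 2 lower of 12 (33.3%), with VPS39, a tethering subunit (0.61 ± 0.09), and the mannose 6-phosphate receptor gene IGF2R (0.60 ± 0.17). Of 14 further pump genes 3 rose (21.4%), among them ATP6V1B2 (0.41 ± 0.11) and ATP6V1D (0.54 ± 0.18). Of 10 genes of the ULK1 and lipid kinase complexes AMBRA1 (0.40 ± 0.12) and RB1CC1 (0.44 ± 0.14) rose (20%). A list of 13 genes held conjugation enzymes, the LC3 family and other genes of autophagosome formation, and of these ATG4A (0.46 ± 0.15) and TMEM41B (0.37 ± 0.12) rose (15.4%). Of 13 other membrane proteins 1 changed (7.69%), LAPTM5, which fell by 0.82 ± 0.28 on the log2 scale.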

How the data were processed

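RNA was measured in 39 libraries of 4 lymphoma lines, in 13 groups of 3 taken from the labels. Per the labels' protocols, Trizol was used for extraction and a TruSeq RNA kit from Illumina for library preparation. STAR, edgeR and hg38 are named in the submitters' processing notes. For the counting program, the annotation and the strand setting the sources used here give nothing, so reads of overlapping genes and their antisense partners cannot be told apart. The authors deposited whole-number counts per gene in a pair of tables. These were equal in 38 of 39 columns and differed in 14746 genes in OCILy10 CB103 replicate 1, and the one named as raw counts was used. Of 15808 Ensembl identifiers 15668 were in GENCODE 29.

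CPM are counts divided by the library total times its TMM factor, as edgeR computes them. From these counts, genes with low counts were removed (filterByExpr, 12814 left), TMM factors were computed, and 13 group means were fitted with edgeR 4.0.16 in R 4.3.3 by quasi-likelihood, with 26 residual degrees of freedom and Benjamini-Hochberg adjustment over all genes tested. The 4 lines were averaged with equal weight. Before use the fit was run on simulated counts. These held no depth class effect, no replicate pairing and no single libraries with genes of another line. The fit was therefore not tested on such features. The alternatives were other scalings, no filter, DESeq2 1.42.0, limma-voom (limma 3.58.1), a replicate block, depth class, the other table, and leaving out libraries. Same-numbered libraries had residual correlations from -0.628 to 0.900, and every pair was over 0.1 in 5 of 9 comparisons, from the data and not from the labels.

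The members and gene lists were chosen with earlier results of these data known. Library values are given for called members with the 8 lowest p per compound, for the 6 with the lowest p between lines with DMSO, and for the 2 lowest with CB103. SQSTM1, TFEB, BECN1, and NEU1 and CTSS with CB103, were added after their values were seen.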

Additional observations from a re-analysis of the deposited data

How the results depend on the processing

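With NEO2734, 14 members were called, against 12 to 16 under the other scalings, filters, tools, tables and terms, and 18 with a replicate block (28.5% of all genes). Fits within 1 depth class, which leave 1 library in some groups, are given above. With OTX015, 8 were called, against 13 with depth class as a term (20.1%) and 12 with the replicate block (18.9%). Other settings lost some of these calls. CTSB did not pass with limma-voom (adjusted p = 0.099), DESeq2 (0.0734), the other table (0.0679), any other scaling or no filter. CTSH did not pass with limma-voom (0.0821), and NPC2 did not with the other table (0.174). NPC1 passed with upper quartile scaling (0.0457) and DESeq2 (0.0378), and ATP6V1A with upper quartile scaling (0.0434). The 6 calls within single lines became 10 with DESeq2 size factors, 10 with upper quartile scaling, 11 with DESeq2, 19 with the replicate block, 22 with depth class as a term and 1 without the 3 libraries that held genes of another line. Calls over all genes rose too. With the block they went from 2.9% to 7.42% with NEO2734 in DOHH2 and from 1.01% to 5.06% in OCILy10. With depth class as a term they went from 20.5% to 30.5% with NEO2734 on the mean of the 4 lines. The 11 members that differed between lines with DMSO became 19 with depth class as a term and 16 with the replicate block. Leaving out 1 library at a time gave 11 to 14 members with NEO2734, 6 to 9 with OTX015, 4 to 8 within single lines and 8 to 16 between lines with DMSO. The OTX015 call of CTSH was lost without Toledo DMSO replicate 2, OCILy10 OTX015 replicate 3, TMD8 OTX015 replicate 3 or Toledo OTX015 replicate 2. The other counts of members were 0 in all of these fits. For single members, 404 values kept direction and side of the threshold, 87 no longer passed, and 1 turned: WIPI1 with CB103 was -0.043 in shallow libraries (adjusted p = 1). Those values include the fit on deep libraries alone, whose spread came from OCILy10. The cause of these changes was not tested. Genes read at under 10 counts in some libraries, such as ULK1, WIPI1 and MCOLN1, are limited by depth.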
